A study of Arabidopsis thaliana with 9 samples.

Results

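The arrays numbered 1 are the 3 of 9 arrays, 1 for each genotype, whose titles carry the replicate number 1. They were set against the 6 arrays numbered 2 and 3, with genotype as a covariate. Transcript levels came from Affymetrix ATH1 arrays of whole Arabidopsis thaliana seedlings. The genotypes were the jmj24 mutant, obtained from a stock centre as N521260, 35S::JMJ24, an overexpressing line made by Agrobacterium transformation, and Col-0 as wild type (WT), with 3 arrays each. The 35S promoter is a viral promoter that is active in most plant tissues, and the labels do not say how many transformed lines were used. The annotation pairs no probe set with JMJ24, and its own level was therefore not checked. The extraction protocol gives an age of 9 days, whereas the growth protocol gives 10 to 14 days, on soil or on plates. The labels do not say whether a number stands for a sowing, a harvest, an extraction or a hybridisation, and these cannot be told apart. They do not state that the arrays of a genotype came from separate cultures, so each p-value measures a spread among arrays that may be only technical.

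Seedlings answer touch, wounding and microbial patterns within minutes, through calcium influx and a burst of transcription that includes calmodulin-like proteins and WRKY transcription factors. Cell wall genes such as expansins, which loosen the wall, and xyloglucan hydrolases, which remodel its hemicellulose, also respond to growth and mechanical signals. Members of both groups are widely used as markers of such responses.

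More probe sets passed the test as lower than as higher on the arrays numbered 1. Of 22746 probe sets tested with limma, 54 passed a Benjamini-Hochberg adjusted p of 0.05, which is 0.237% of those tested, with 47 lower (0.207%) and 7 higher (0.0308%). The 47 fell by a median of 0.66 on the log2 scale, with differences between -1.80 and -0.40, and 9 of them fell at least 2-fold. The 7 that rose had a median difference of 0.60, between 0.35 and 0.84. Each of the 54 was outermost on the same side on the array numbered 1 within all 3 genotypes, a pattern shown by 17.7% of all probe sets, 1745 on the higher and 2282 on the lower side. The 54 were picked by this same contrast, which favours that pattern, so it is no further test of them. A mark of background was set at 5.80, the mean level of the brightest of 27 bacterial controls without spike. A probe set counted as above it where either group mean exceeded it. Above the mark 1626 probe sets showed the pattern on the higher and 1692 on the lower side. Below the mark the counts were 119 and 590, so most of the excess on the lower side lay there. The median difference over all probe sets was -0.0046.

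The adjusted p-values lay close to the threshold. The lowest was 0.0401 in limma's test, and 52 of the 54 were above 0.045. Without jmj24 1, jmj24 2, jmj24 3, 35S::JMJ24 1, 35S::JMJ24 2, 35S::JMJ24 3 or WT 1, each left out alone, no probe set passed, and the lowest adjusted p in limma then lay between 0.0523 and 0.275, with 2528 to 4242 probe sets at an unadjusted p under 0.05. Without WT 2 the count was 176, and without WT 3 it was 61, of which 34 were among the 54. In these 9 fits the sign of all 54 differences was kept and each had an unadjusted p under 0.05. These fits share most arrays with the fit that picked the 54, so they are no separate test. In the full fit 3871 probe sets had an unadjusted p under 0.05, 2420 of them lower and 1451 higher. Above the mark of background these counts were 1761 lower and 1320 higher, and below it 659 lower and 131 higher.

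The differences were shared across genotypes in part. Within each genotype the array numbered 1 was set against the mean of its arrays numbered 2 and 3. Across probe sets, which are not independent replicates, these differences had a Pearson correlation of 0.427 between jmj24 and 35S::JMJ24, 0.438 between jmj24 and WT, and 0.418 between 35S::JMJ24 and WT. The sign was the same in all 3 genotypes for 9474 probe sets, 41.7% of the total. The differences had an SD across probe sets of 0.193 in jmj24, 0.185 in 35S::JMJ24 and 0.223 in WT. Differences of at least 1.5-fold were counted as 102 higher and 211 lower in jmj24, 55 higher and 196 lower in 35S::JMJ24, and 79 higher and 391 lower in WT. No probe set passed limma's test of whether the difference depended on genotype, after Benjamini-Hochberg adjustment, and 830 had an unadjusted p under 0.05.

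The arrays numbered 2 were not alike in their distance from the arrays numbered 1. After each genotype's mean was removed, the first principal component held 40.1% of the remaining variance. Its scores were 15.2, 13.2 and 18.9 for the arrays numbered 1 of jmj24, 35S::JMJ24 and WT. They were -8.88, -7.22 and -1.41 for those numbered 2, and -6.30, -5.95 and -17.5 for those numbered 3. WT 2 thus lay nearest to the arrays numbered 1, and WT 3 lay farthest from them. With the number entered as 3 levels, 512 probe sets (2.25%) separated the arrays numbered 1 from those numbered 3, with 159 higher and 353 lower. None separated the arrays numbered 1 from those numbered 2 in limma, where the lowest adjusted p was 0.0964 and 3186 probe sets had an unadjusted p under 0.05. None separated the arrays numbered 2 from those numbered 3, with 1593 at an unadjusted p under 0.05.

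**Figure D1:**
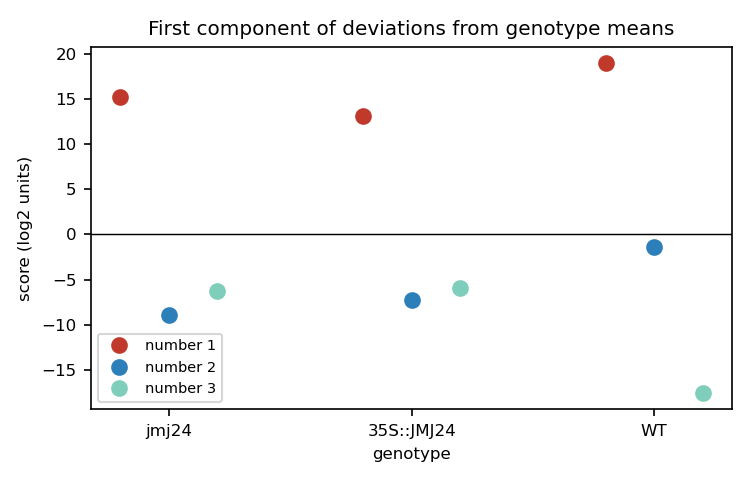
The 9 arrays are placed by their score on the first principal component of the values after each genotype's mean was removed, by genotype and number. The 3 arrays numbered 1 score 13.2 to 18.9 and the 6 others score below 0, with WT 2 nearest to 0 at -1.41.

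Among the probe sets that fell, WT 2 again lay nearest to the arrays numbered 1, whereas WT 3 did not lie farthest from them. Genotype means were not removed here, so differences in level between genotypes are part of these values. Relative to each probe set's mean over 9 arrays, the median of the 47 was -0.27 in jmj24, -0.37 in 35S::JMJ24 and -0.72 in WT on the arrays numbered 1. It was 0.37, 0.22 and -0.15 in these genotypes on the arrays numbered 2, and 0.35, 0.33 and 0.21 on those numbered 3. WT 1 held the lowest of the 9 values in 42 of the 47, and WT 2 held the lowest of the 6 values on the arrays numbered 2 and 3 in 38. The 3 arrays numbered 1 did not overlap with the 6 others in 36 of the 47. How many of all probe sets show these patterns was not counted. The median difference within genotype was -0.66 in jmj24, -0.68 in 35S::JMJ24 and -0.79 in WT. The 47 and the 7 were chosen by the same contrast, so these values describe them and are no further test.

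**Figure D2:**
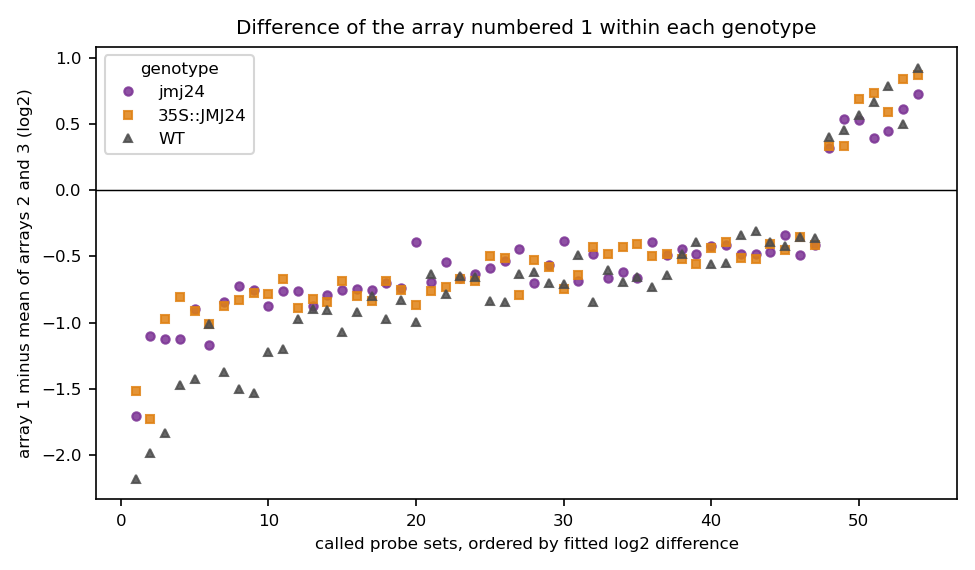
For each of the 54 probe sets that passed limma's test, ordered by fitted difference along the x axis, the y axis gives the log2 difference of the array numbered 1 from the mean of arrays 2 and 3 within jmj24 (circles), 35S::JMJ24 (squares) and WT (triangles). The 47 that fell are below 0 and the 7 that rose above 0 in all 3 genotypes, and WT reaches the lowest value, -2.18.

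The 54 probe sets were spread unevenly over level. Ranked by mean level and divided into 4 groups of equal size, from dimmest to brightest, the groups held 3, 16, 17 and 18 of them. The median differences over all probe sets in these groups were -0.06, -0.01, 0.02 and 0.02. Of the 54, 25 named a single gene, 1 named several genes and 28 were unnamed in the annotation used here. The 25 named loci were 0.188% of the 13297 measured. Only 2 of them carry a gene symbol there, EXLA1 and RR23, and the others are given there by locus identifier only. The RefSeq gene table lists 22 of the 25 as protein-coding and 3 as pseudogenes, among them AT1G35663.

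EXLA1 (AT3G45970) encodes expansin-like A1, a member of the expansin superfamily of cell wall proteins. It measured 11.9, 12.2 and 11.7 on the arrays numbered 1 of jmj24, 35S::JMJ24 and WT, against 12.4, 12.6 and 12.2 on those numbered 2 and 12.7, 12.6 and 12.5 on those numbered 3, as log2 levels. Each genotype was lowest on its array numbered 1, and the groups did not overlap, since 35S::JMJ24 1 at 12.15 was just under WT 2 at 12.20. EXLA1 fell by 0.58 with an SE of 0.0895, an adjusted p of 0.0469 in limma. RR23 encodes a response regulator, a member of a family that includes phosphorelay components of cytokinin signalling. It measured 5.55, 5.46 and 5.06 on the arrays numbered 1, against 6.09, 6.03 and 5.70 on those numbered 2 and 5.98, 5.85 and 5.69 on those numbered 3. RR23 fell in the test. However, its 3 arrays numbered 1, as well as WT 2 and WT 3, read below 5.80, the mark of background. No size is given for it.

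The largest fall among named loci was that of AT4G11000. It measured 6.71, 6.20 and 5.26 on the arrays numbered 1 of jmj24, 35S::JMJ24 and WT, against 7.76, 8.02 and 6.80 on those numbered 2 and 7.86, 7.84 and 7.69 on those numbered 3. The 3 arrays numbered 1 averaged 6.06 ± 0.738 (SD, n = 3) and the 6 others 7.66 ± 0.437 (SD, n = 6). All 3 lay below the 6 others, the nearest of which was WT 2. WT 1 at 5.26 read below 5.80, the mark of background, so the size of the fall in WT is uncertain. The fall was 1.60 on the log2 scale, a 3.04-fold difference (SE 0.203, adjusted p = 0.0467 in limma), and lay between -1.86 and -1.41 when single arrays were left out.

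AT1G19380 fell by 1.31 (SE 0.192, adjusted p = 0.0467 in limma). It measured 10.4, 10.4 and 9.19 on the arrays numbered 1, against 11.3, 11.3 and 10.7 on those numbered 2 and 11.8, 11.5 and 11.3 on those numbered 3. The groups did not overlap, and WT 1 stood more than 1 log2 unit below the other arrays. AT2G24600 fell by 1.06, AT1G02660 by 1.03 and AT2G22880 by 1.02, each with an adjusted p of 0.0467 in limma. AT2G22880 measured 8.69, 8.57 and 7.98 on the arrays numbered 1, against 9.54, 9.28 and 9.29 on those numbered 2 and 9.34, 9.43 and 9.73 on those numbered 3. Here WT 2 was within the range of the other arrays numbered 2 and 3, and the groups did not overlap. AT2G24600 did overlap, with 7.18 on jmj24 1 against 7.17 on WT 2, although every genotype was lowest on its own array numbered 1.

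The smallest p belonged to AT2G01300. It measured 6.85, 6.87 and 6.40 on the arrays numbered 1, against 7.46, 7.46 and 6.99 on those numbered 2 and 7.49, 7.64 and 7.11 on those numbered 3. It fell by 0.66 (SE 0.0605, adjusted p = 0.0401 in limma), and the difference was -0.63 in jmj24, -0.68 in 35S::JMJ24 and -0.65 in WT. WT was lower than the other genotypes at each number, and the groups did not overlap. AT1G55450 measured 11.8, 11.7 and 11.3 on the arrays numbered 1, against 12.51, 12.36 and 11.96 on those numbered 2 and 12.6, 12.7 and 12.5 on those numbered 3. Its groups did not overlap, and it fell by 0.85. The falls of AT4G38550, AT1G55450, AT2G41640, AT3G59350, AT1G59910, AT5G66070, AT3G09380 and AT1G35663 ranged from -0.86 for AT4G38550 to -0.59 for AT1G35663.

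Of the 7 probe sets that rose, 3 named a single gene. AT4G16880 measured 7.70, 7.93 and 7.87 on the arrays numbered 1, against 7.23, 7.11 and 7.49 on those numbered 2 and 6.94, 7.06 and 7.23 on those numbered 3. It rose by 0.65 (SE 0.0935, adjusted p = 0.0467 in limma) and the groups did not overlap. AT3G45210 rose by 0.60, with 8.56, 8.72 and 9.03 on the arrays numbered 1 against 8.09, 8.14 and 8.62 on those numbered 2 and 7.97, 7.92 and 8.31 on those numbered 3. WT 2 at 8.62 exceeded jmj24 1 at 8.56, so these groups overlapped. AT5G19875 rose by 0.44 and its groups did not overlap.

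**Figure D3:**
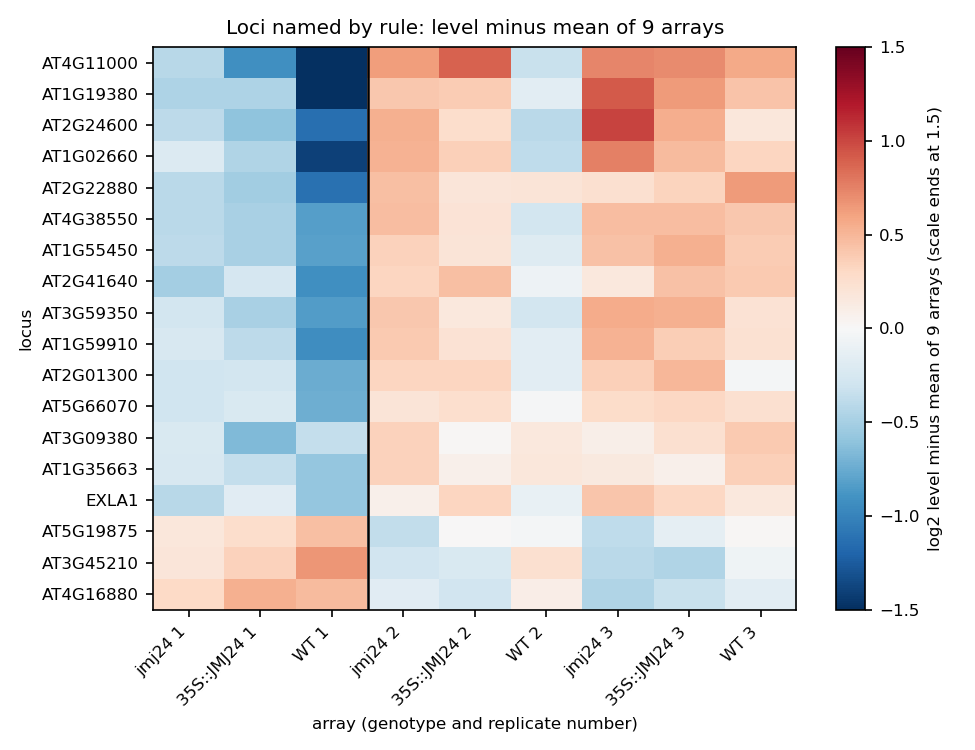
Each row is 1 of the 18 loci named by rule, 15 that fell above 3 that rose, and each column is an array, with those numbered 1 left of the black line. Colour gives the log2 level minus that locus's mean over 9 arrays, on a scale that ends at 1.5. WT 1 is the darkest blue of each row that fell except AT3G09380, where 35S::JMJ24 1 is lowest.

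The strongest fall of all was that of a probe set without a gene name in the annotation, singled out after its values were seen. It measured 9.26, 9.24 and 7.77 on the arrays numbered 1, against 10.7, 10.6 and 9.30 on those numbered 2 and 11.2, 10.9 and 10.6 on those numbered 3, a difference of -1.80. WT 2 was again the lowest of the 6 arrays numbered 2 and 3.

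The measured touch and wound genes and immune genes all had negative differences on the arrays numbered 1, and none of them passed the test. Lists by locus tag for 23 processes hold 297 loci, of which 39 could be matched to a named probe set. None of the 39 was among the 54, where 0.188% of all loci were. All 5 measured loci of the 26 in the touch and rapid wound list had a negative difference, with a median of -0.50 against -0.01 over all loci. Within genotype this median was -0.21 in jmj24, -0.46 in 35S::JMJ24 and -0.77 in WT, so it was largest in WT. Of the 5, 3 were lower at an unadjusted p under 0.05, compared with 11.2% of all loci. All 5 measured of the 28 in the salicylic acid and immunity list were negative too, with a median of -0.25, and 3 were lower at that unadjusted p. Within genotype their median was -0.33 in jmj24, -0.24 in 35S::JMJ24 and -0.31 in WT. The array numbered 1 was lowest in all 3 genotypes for 2 of the 5 touch loci and 3 of the 5 immune loci, against 10.5% of all loci. The lists were chosen with earlier results of these data known, so these shares describe them and are no test of them. In whole seedlings, fewer cells of a type and less RNA per cell cannot be told apart.

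EXO (EXORDIUM), a brassinosteroid-responsive extracellular protein that promotes growth, measured 8.81, 8.30 and 7.89 on the arrays numbered 1, against 9.32, 9.25 and 8.45 on those numbered 2 and 9.80, 9.20 and 9.16 on those numbered 3. Every genotype was lowest on its array numbered 1, while jmj24 1 lay above WT 2. The difference was -0.86 with an adjusted p of 0.0561 in limma, and 0.0150 where the number was entered as 3 levels. CML38, a calmodulin-like calcium sensor induced by wounding, differed by -0.50 (adjusted p = 0.0638 in limma). WRKY53, a senescence and defence regulator, differed by -0.82 (adjusted p = 0.163 in limma). WRKY53 measured 9.55, 9.24 and 7.90 on the arrays numbered 1, against 10.1, 9.80 and 9.52 on those numbered 2 and 9.50, 9.60 and 9.83 on those numbered 3. The difference was -0.35 without WT 1, and the groups overlapped. CML37 differed by -0.11, and STZ, a zinc-finger repressor of stress responses, by -0.01.

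Among immune genes, WRKY22, a transcription factor downstream of pattern recognition, measured 9.31, 9.28 and 8.58 on the arrays numbered 1, against 9.78, 9.85 and 9.36 on those numbered 2 and 9.84, 9.83 and 9.91 on those numbered 3. Its groups did not overlap, and its difference was -0.70 (adjusted p = 0.0613 in limma). SAG101, a lipase-like partner of EDS1 in immune signalling, differed by -0.35 (adjusted p = 0.0549 in limma), with -0.33, -0.33 and -0.39 in jmj24, 35S::JMJ24 and WT. With the number as 3 levels WRKY22 and SAG101 passed, at 0.0360 and 0.0318 in limma. BIK1, a receptor-like cytoplasmic kinase of pattern recognition, differed by -0.17, WRKY6 by -0.25 and GRX480, a glutaredoxin linked to salicylic acid, by -0.12. PDF1.2 and PDF1.2b, defensins that serve as jasmonate and ethylene markers, differed by -0.37 and -0.45, with adjusted p-values of 0.320 and 0.376 in limma and overlapping groups. PDF1.2 differed by -0.18 without WT 1, and the median of both was -0.09 in jmj24, -0.50 in 35S::JMJ24 and -0.65 in WT.

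**Figure D4:**
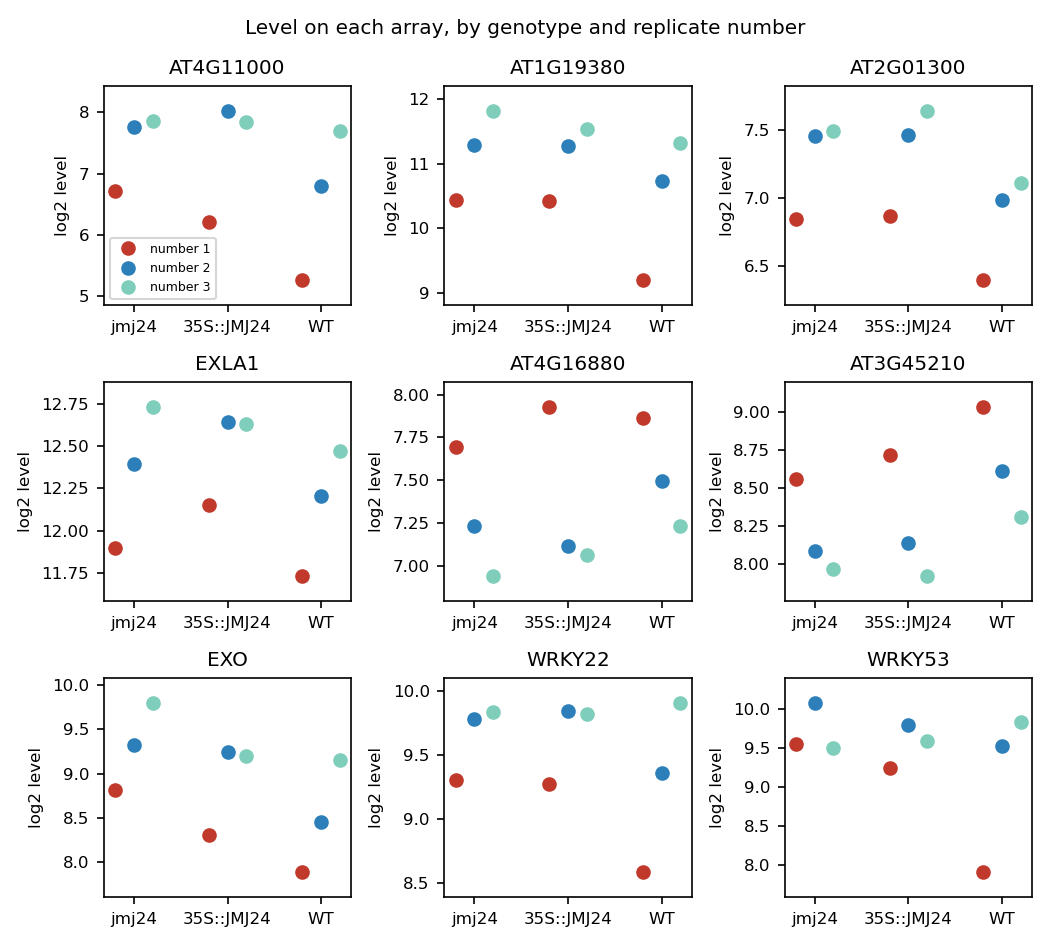
Log2 level (y axis, a separate scale in each panel) of 9 loci on each array, by genotype on the x axis and by replicate number in colour, 1 point per array. AT4G11000 lies at 5.26 to 6.71 on the arrays numbered 1 and at 6.80 to 8.02 on the others, and WRKY53 is lowest on WT 1 at 7.90.

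The listed genes of light, cold and heat gave small differences, none past the threshold. COR27, a cold-regulated gene outside these lists, differed by -0.59 and did not pass either (adjusted p = 0.0638 in limma). The 4 measured loci of nuclear photosynthesis were all positive with a median of 0.09, among them PRK and SBPASE of the Calvin cycle at 0.16 and 0.14, the antenna gene LHCB4.1 at 0.04 and Rubisco activase RCA at 0.03. In this list 2 of the 4 were higher at an unadjusted p under 0.05, against 5.67% of all loci, and 2 were highest on the array numbered 1 in all 3 genotypes, against 6.88%. This list too was chosen with earlier results known, so these shares are no test of it. The 4 of cold and abscisic acid had a median of 0.15, with COR15A at 0.29, LTI30 at 0.17, COR15B at 0.12 and COR47 at -0.02. COR15A, which protects chloroplast membranes in freezing, measured 11.3, 11.3 and 11.5 on the arrays numbered 1, against 11.04, 11.30 and 11.32 on those numbered 2 and 10.7, 11.1 and 11.1 on those numbered 3, and each genotype was highest on its array numbered 1. The heat shock list's AT1G53540 differed by 0.31, but by 0.11 without WT 1 and 0.57 without 35S::JMJ24 1. Its difference was 0.43 in jmj24, -0.22 in 35S::JMJ24 and 0.71 in WT. ATHSP22.0 was below the mark of background on every array, so no size is given. GI, the evening clock gene GIGANTEA, differed by 0.00, with levels of 10.1 on all 9 arrays.

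No measured marker of the other processes passed the test. FMA, which specifies guard cells, differed by 0.17, and the guard cell list's other member AT1G22690 by -0.01. EXPA18 and EXPA7, expansins of root hairs, differed by -0.30 and -0.18, and in WT alone by -0.71 and -0.53. Without WT 1 they differed by -0.10 and -0.01. The kinase AUR1 of cell division differed by 0.03, and the endoplasmic reticulum chaperone CRT1b by 0.05. APL3, a sugar-induced subunit of starch synthesis, differed by 0.16, the iron regulators PYE and BHLH101 by -0.11 and -0.08, the low oxygen regulator HRA1 (AT3G10040) by -0.16 and the detoxifying GSTU25 by 0.06. The 3 flavonoid genes had a median of 0.09. The other 7 lists, among them morning clock, nitrate, phosphate and seed storage, had no member named by a probe set.

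Gene families named by symbol were spread to both sides of 0. The 6 measured WRKY factors had 5 negative differences and a median of -0.19. Of the 9 plant U-box ligases, which attach ubiquitin, 7 were negative and 4 lower at an unadjusted p under 0.05, a mark that 11.2% of all loci reached on the lower side and 5.67% on the higher side. Of the 15 plant defensins and low molecular weight cysteine-rich proteins, 10 were negative and 5 lower at that mark, against the same 11.2%. The lists were chosen with earlier results of these data known, so such shares are no test. The 14 expansins had a median of 0.06, between -0.48 for EXPA16 and 0.45, and the 9 xyloglucan hydrolases a median of -0.12. The 21 CYP71 cytochromes P450 and the 47 UGT glycosyltransferases had medians of 0.00 and 0.01, with 8 UGT loci lower and 2 higher at that mark, while over all loci too more were lower than higher. None of these families held a member among the 54, where 0.188% of all loci were. At that share, families of these sizes would seldom hold any, so this shows nothing particular to them. Over 27 families of at least 8 loci, 390 loci in all, the medians ran from -0.18 to 0.08.

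**Figure D5:**
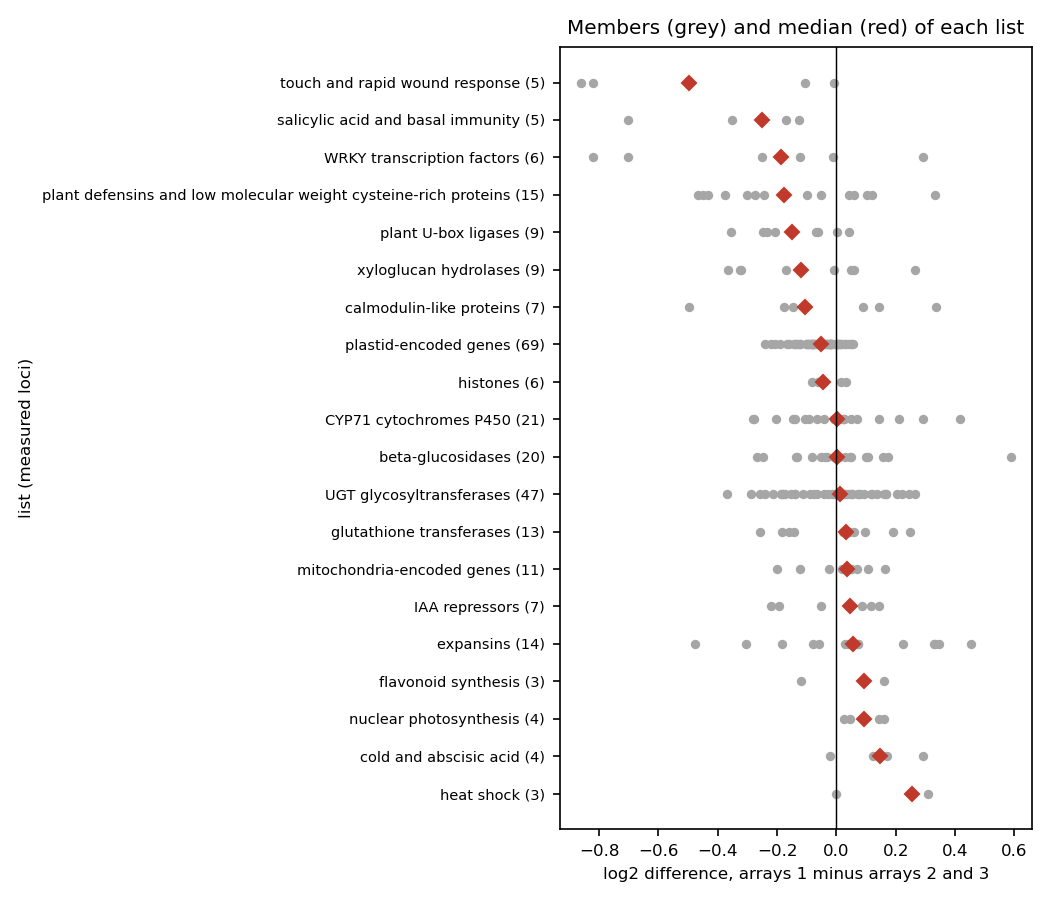
Log2 difference of the arrays numbered 1 minus those numbered 2 and 3 (x axis) for each list or family with at least 3 measured loci, as 1 grey point per locus and a red diamond for the median. The touch and immunity lists lie wholly below 0, with medians of -0.50 and -0.25, and the photosynthesis list wholly above 0, with a median of 0.09.

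Entering the number as 3 levels, with the mean of levels 2 and 3 as the comparison, gave 446 probe sets, 1.96% of those tested, of which 110 were higher and 336 lower. All 54 were among them. By locus, 174 (1.31%) were lower and 45 (0.338%) higher, and the genes given here were picked from these after their values were seen. THE1 (THESEUS1), a receptor kinase that monitors the cell wall, measured 8.87, 8.72 and 8.71 on the arrays numbered 1, against 9.16, 9.28 and 8.89 on those numbered 2 and 9.41, 9.29 and 9.08 on those numbered 3. Its groups did not overlap. THE1 differed by -0.42, the peptide gene RALFL33 by -0.35 and the pectin methylesterase ATPMEPCRB by -0.66. DTX50 (AT5G52050), a transporter of abscisic acid, differed by -0.80, PTI1-4, a kinase, by -0.69, COR27, a cold and clock-regulated gene, by -0.59 and IQD26, a calmodulin-binding family member, by -0.52. Among the higher ones were the sucrose exporter SWEET13 at 0.49, the P450 CYP71B26 at 0.42 and BLUS1 (AT4G14480), a kinase of blue light signalling in guard cells, at 0.44. None of these 10 passed the test with 1 term for the number.

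No measure of RNA or array quality had an exact permutation p under 0.05. The gap between 3-prime and 5-prime control probe sets, which widens with RNA degradation, averaged 3.36 ± 0.0285 on the arrays numbered 1 (SD, n = 3) and 3.38 ± 0.0452 on the others (SD, n = 6), with an exact two-sided permutation p of 0.556 over 27 choices of 1 array per genotype. The smallest p this design allows is 0.037, and the 8 array measures had adjusted p-values of at least 0.741. Plastid-encoded genes averaged 12.05 on the arrays numbered 1 and 12.11 on the others (exact permutation p = 0.481), and mitochondria-encoded genes 6.75 and 6.73 (exact permutation p = 0.963). Of 69 plastid-encoded loci 55 were negative, with medians of 0.08 in jmj24, 0.00 in 35S::JMJ24 and -0.22 in WT. The interquartile range of the arrays averaged 3.94 on the arrays numbered 1 and 3.88 on the others (exact permutation p = 0.111). The part of these measures in the differences above was not tested beyond these values.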

How the data were processed

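The deposited values were read as log2 summaries per probe set, from their range of 2.63 to 14.7. The submitters' processing notes name affy, with version and settings not given in the sources used here. Of 22810 probe sets, 64 controls were left out. Names came from the platform annotation, updated by the RefSeq gene table. Where several probe sets named 1 locus, the brightest stood for it.

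Differences were fitted with limma 3.58.1 in R 4.3.3 with a mean per genotype and a term for arrays numbered 1 (residual df 5, prior df 3.96), and p-values were adjusted by Benjamini-Hochberg over all 22746. On simulated data of 22746 probe sets for this comparison, the fit called 52 of 100 shifted by 0.5 (log2), 94 of 100 shifted by 1 and 10 of the 22546 left unshifted. Single array measures were tested by exact permutation. Precision is limited by the number of arrays.

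The rule named up to 15 called falls and rises of single-gene probe sets, and listed genes by smallest p. For the falls and rises, the higher group mean had to exceed 5.80, the brightest of 27 bacterial controls without spike. Single arrays of a named gene could read below it. The contrast, members and lists were chosen with earlier results of these data known. Alternatives covered normalization, a dim filter, weights, variance moderation, the coding of the number, and left-out arrays. One further gene family is not reported here.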

Additional observations from a re-analysis of the deposited data

Results flagged for a closer look

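Among the 6 arrays numbered 2 and 3, a value was marked where its gap to the nearest of the others, over the whole range, exceeded Dixon's critical value for 6 samples. This held in 18 of 161 tested sets of 6 values, and chance marks about 1 in 20 where the 6 values are drawn alike. Here they mix genotypes and replicate numbers, and many sets were picked by their differences, so that rate is no firm reference. WT 2 stood apart in 6 of them. It was low for AT4G11000 at 6.799 against 7.69 to 8.02 on the other 5, for AT4G38550 at 10.53, for AT5G66070 at 9.595, for WRKY22 at 9.359 and for VPS2.1 at 11.11, and high for AT1G22690 at 13.56. In the first 4 and in VPS2.1, its value lay toward those of the arrays numbered 1.

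WT 3 was low for COR15B at 12.09 and for OTP87 at 5.797, and high for BHLH101 at 10.96 and nad1 at 7.188. Array jmj24 3 was low for LTI30 at 10.57, RCA at 13.4 and OTP80 at 3.212. Array jmj24 2 was low for APL3 at 6.013 and high for GH9A3 at 7.502. Array 35S::JMJ24 3 was high for UBP27 at 7.15 and low in the mean of mitochondria-encoded genes at 6.485, and 35S::JMJ24 2 was high in the bacterial controls without spike at 4.022.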

How the results depend on the processing

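The count of 54 probe sets became 68 with renewed quantile normalization, 92 with arrays centred on their medians, 294 without the dimmer 50% of probe sets, 274 with array weights and 507 with a trend and robust moderation. It became 0 without a genotype term (3123 at an unadjusted p under 0.05), 0 at an adjusted p under 0.01, 0 against the arrays numbered 2 alone and 512 against those numbered 3 alone. With single arrays left out it ranged from 0 to 176, and it was 0 without all 3 arrays of jmj24, of 35S::JMJ24 or of WT. In the 21 refits, which reuse the arrays that picked the 54, every tested member of the 54 kept its sign. The causes were not tested. The interaction gave 0 calls in limma in all alternatives run. Of the values of single named features under the alternatives, 2822 kept their direction and side of the threshold, 221 were weaker and 52 stronger. The other 50 changed sign. They belong to 12 features, none of which passed the threshold (lowest adjusted p 0.576 in limma).

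With the replicate number as a 3-level replicate block the count was 446. Deviations from genotype means correlated at 0.418 to 0.438 between arrays numbered 1. The range was 0.0143 to 0.173 between those numbered 2, 0.171 to 0.303 between those numbered 3 and -0.527 to 0.271 between different numbers. The values for the arrays numbered 1 thus lay above all those between different numbers. They repeat the within-genotype correlations given earlier, so they are no further observation. With its mean removed, the deviations of a genotype cancel out, which pushes the values between different numbers down. The comparison is therefore partly built in and is no test. The main fit did not take the samples as paired, because the labels give no pairing beyond the number. Promoter motifs were not run, since no promoter sequences were used here.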

Other observations

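In the deposited table, 9171 of the 22746 probe sets (40.3%) hold the same value on at least 2 arrays, and 738 hold 1 value on at least 4. Of the 54 probe sets that passed, 1 holds a repeated value. EXPA7, for example, is listed at 6.16 on jmj24 1, jmj24 2, 35S::JMJ24 2 and WT 2.

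The dimmest of the 4 equal groups of probe sets had 661 lower and 140 higher on the arrays numbered 1 at an unadjusted p under 0.05. Its median difference of -0.06 became 0.00072 after renewed quantile normalization.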
